A study of Mus musculus with 33 samples.

Results

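The 8 genes described here are Pi16, Dpp4, Cd248, Cd34, Ly6a, Ly6c1, Clec3b and Pcolce2, a set that marks adventitial fibroblasts with progenitor-like features in mouse connective tissue. They were chosen by symbol among the 31053 genes counted in 3 single-cell RNA libraries of the adult mouse colon, and all 8 were found. The single-cell samples are 3 of the 33 samples of the series, and the other 30 are not used here. The tissue was colon of untreated adult mice, both sexes, taken after removal of the muscle layer, release of the epithelium with EDTA and digestion with collagenase. The whole mesenchyme library (1 library, genotype given as control) held live cells sorted as negative for EpCAM, an epithelial protein, and CD45, a leukocyte protein. The GFP-low libraries (2 replicates) came from PdgfraH2BeGFP mice, in which the Pdgfra gene drives a nuclear green fluorescent protein, and held live unstained cells sorted for the level of that reporter. No source used here gives the limits of that gate. The labels do not say whether the replicates are separate animals. The p-values therefore speak only of the spread among these libraries, which may be technical, and of spread borrowed across all genes tested. Where 3 values follow each other, they are whole mesenchyme, then the first and then the second GFP-low replicate.

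Adventitial fibroblasts lie around vessels and in the outer sheaths of organs, where they build a loose collagen-rich matrix. In many mouse tissues a subset with Pi16 and Dpp4 transcripts is described as able to give rise to more specialised fibroblasts. Several genes used to mark this subset are also well-known endothelial or stem cell markers, so detection of one of them in a cell does not by itself name the cell. In the gut, fibroblasts with the tetraspanin Cd81 lie near the base of the crypts and in the submucosa and are known as a source of secreted signals for epithelial stem cells.

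After filtering there were 6793, 4834 and 6025 cells, with medians of 4429, 6446.5 and 7025 transcript counts (unique molecular identifiers, UMIs) per cell. The libraries held 41863444, 39190629 and 52313765 UMIs in all. Clusters were formed without the 8 genes and without Cd81 and were named by resemblance to marker genes. The Grem1/C3-like fibroblasts numbered 561, 3493 and 4154 cells, and the Adamdec1-like fibroblasts, a lamina propria type, 2589, 1182 and 1327. Of the other named types, whole mesenchyme held nearly all cells: 1569 telocyte-like cells (subepithelial cells rich in Pdgfra), 801 blood endothelial-like cells, 161 smooth muscle-like cells, 84 pericyte-like cells, 66 glia-like cells and 59 lymphatic endothelial-like cells. Despite the labelled cell type, 128 T or innate lymphoid-like, 37 myeloid-like and 18 B or plasma-like cells were present over the 3 libraries. Unnamed clusters held 881, 29 and 464 cells, which enter no comparison of fibroblasts; 6, 0 and 29 of them held a Pi16 UMI. The clusters of fibroblasts were largely specific to 1 library each, and interferon, stress or inflammatory genes led several of them (Ifit1 and Myc in cluster 0, Saa3 and Cxcl2 in cluster 1, Ifit3 and Socs1 in cluster 7). Libraries shared few cell barcodes with another library, between 17 and 22 each.

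The genes encode surface and secreted proteins of unrelated families. Pi16 (ENSMUSG00000024011, chr17:29318796-29328903) encodes a peptidase inhibitor of the CAP superfamily. Dpp4 (ENSMUSG00000035000, chr2:62330073-62412315) encodes CD26, a membrane peptidase that trims dipeptides from chemokines and hormones. Cd248 (ENSMUSG00000056481, chr19:5068078-5070640) encodes endosialin, a C-type lectin-like receptor of stromal cells and pericytes, and Cd34 (ENSMUSG00000016494, chr1:194938821-194961292) a sialomucin of fibroblasts, endothelium and blood stem cells. Ly6a (Sca-1, ENSMUSG00000075602, chr15:74994877-74998031) and Ly6c1 (ENSMUSG00000079018, chr15:75044018-75048920) encode small glycolipid-anchored proteins, and Ly6c1 has a near-identical copy, Ly6c2, between which reads can be split. Clec3b (ENSMUSG00000025784, chr9:123150946-123157432) encodes tetranectin, a secreted plasminogen-binding lectin, and Pcolce2 (ENSMUSG00000015354, chr9:95637628-95695551) an enhancer of the protease that matures procollagen. Coordinates are those of GRCm38.p6, the assembly of the RefSeq gene table.

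RefSeq promoter sequences were matched for 5 of the 8 genes (GRCm38.p6); none was used for Cd248, Ly6a and Clec3b. All 5 genes with a sequence are shown. Of these, Pi16, Dpp4 and Pcolce2 had the largest differences by Cd81 class, and Cd34 and Ly6c1 were shared with endothelium. A second window of Ly6c1 lies wholly inside the annotated gene and is not printed. Each line gives the bases outside the annotated gene within the 250 bases before the start, 5′ to 3′ on the gene's strand, at chr17:29318632-29318795 (plus strand) for Pi16, chr2:62412316-62412481 (minus strand) for Dpp4, chr9:95637378-95637627 (plus strand) for Pcolce2, chr1:194938571-194938820 (plus strand) for Cd34 and chr15:75048921-75049087 (minus strand) for Ly6c1. Capitals mark matches, on either strand, to 6 motifs. These were the AP-1 site with the letters TGANTCA, the GC box with the letters GGGCGG and the TATA box with the letters TATAAA. The others were the TEAD site with the letters GGAATG, the ETS site with the letters CCGGAA and the E-box with the letters CANNTG.
Pi16: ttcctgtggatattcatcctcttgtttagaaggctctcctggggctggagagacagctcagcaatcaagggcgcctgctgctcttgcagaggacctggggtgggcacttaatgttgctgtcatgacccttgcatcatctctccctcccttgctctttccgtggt
Dpp4: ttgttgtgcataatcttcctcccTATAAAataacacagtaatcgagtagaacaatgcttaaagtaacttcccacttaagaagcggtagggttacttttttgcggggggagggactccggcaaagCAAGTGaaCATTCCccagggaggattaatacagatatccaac
Pcolce2: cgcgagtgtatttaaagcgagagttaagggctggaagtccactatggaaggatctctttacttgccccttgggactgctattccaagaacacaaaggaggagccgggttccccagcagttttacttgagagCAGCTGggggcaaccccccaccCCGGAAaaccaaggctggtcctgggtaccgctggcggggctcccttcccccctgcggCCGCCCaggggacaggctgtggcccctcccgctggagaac
Cd34: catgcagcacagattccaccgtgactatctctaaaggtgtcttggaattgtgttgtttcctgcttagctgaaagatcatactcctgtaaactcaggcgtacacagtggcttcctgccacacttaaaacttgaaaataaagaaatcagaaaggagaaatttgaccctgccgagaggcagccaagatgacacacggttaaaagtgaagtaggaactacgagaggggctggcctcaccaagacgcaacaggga
Ly6c1: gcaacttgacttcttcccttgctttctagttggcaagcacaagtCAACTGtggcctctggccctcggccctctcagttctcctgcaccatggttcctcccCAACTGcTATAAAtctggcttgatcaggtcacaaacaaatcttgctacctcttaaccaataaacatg

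The windows differed in the motifs they held, and none was found in all 5. The windows of Pi16 and Cd34, as printed, held none of the 6 motifs. The window of Dpp4 held TATAAA, an E-box (CAAGTG) and the TEAD letters on the reverse strand (CATTCC), 227, 126 and 118 bases before the start. That of Pcolce2 held an E-box, the ETS letters and a reverse GC box (CCGCCC), 119, 97 and 40 bases before the start. That of Ly6c1 held TATAAA and 3 E-boxes, of which 1 lies inside the annotated gene and is not printed. Over 27025 promoters of the same length, E-boxes were found in 66.0%, GC boxes in 32.9%, TATAAA in 13.0%, the TEAD letters in 12.6%, the ETS letters in 12.2% and AP-1 sites in 6.87%. No printed match overlapped another. A match describes letters and is not evidence of a bound site.

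Levels were given as CPM, the UMIs of a gene scaled to a fixed total of UMIs of the class. They separated 3 patterns among the 8 genes. Among fibroblasts, Pi16, Dpp4 and Pcolce2 were concentrated in the Grem1/C3-like class. Cd248 and Clec3b were highest there but also detected in Adamdec1-like fibroblasts, at levels within or below the near-empty intervals given below. Cd34, Ly6a and Ly6c1 were found in both fibroblasts and blood endothelium, Cd34 highest in Grem1/C3-like fibroblasts and Ly6a and Ly6c1 highest in endothelium. With 1 library holding nearly all non-fibroblast cells, levels across classes are a description with counting intervals (95%, exact Poisson for CPM and exact binomial for shares of cells), which cover counting error only.

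**Figure D1:**
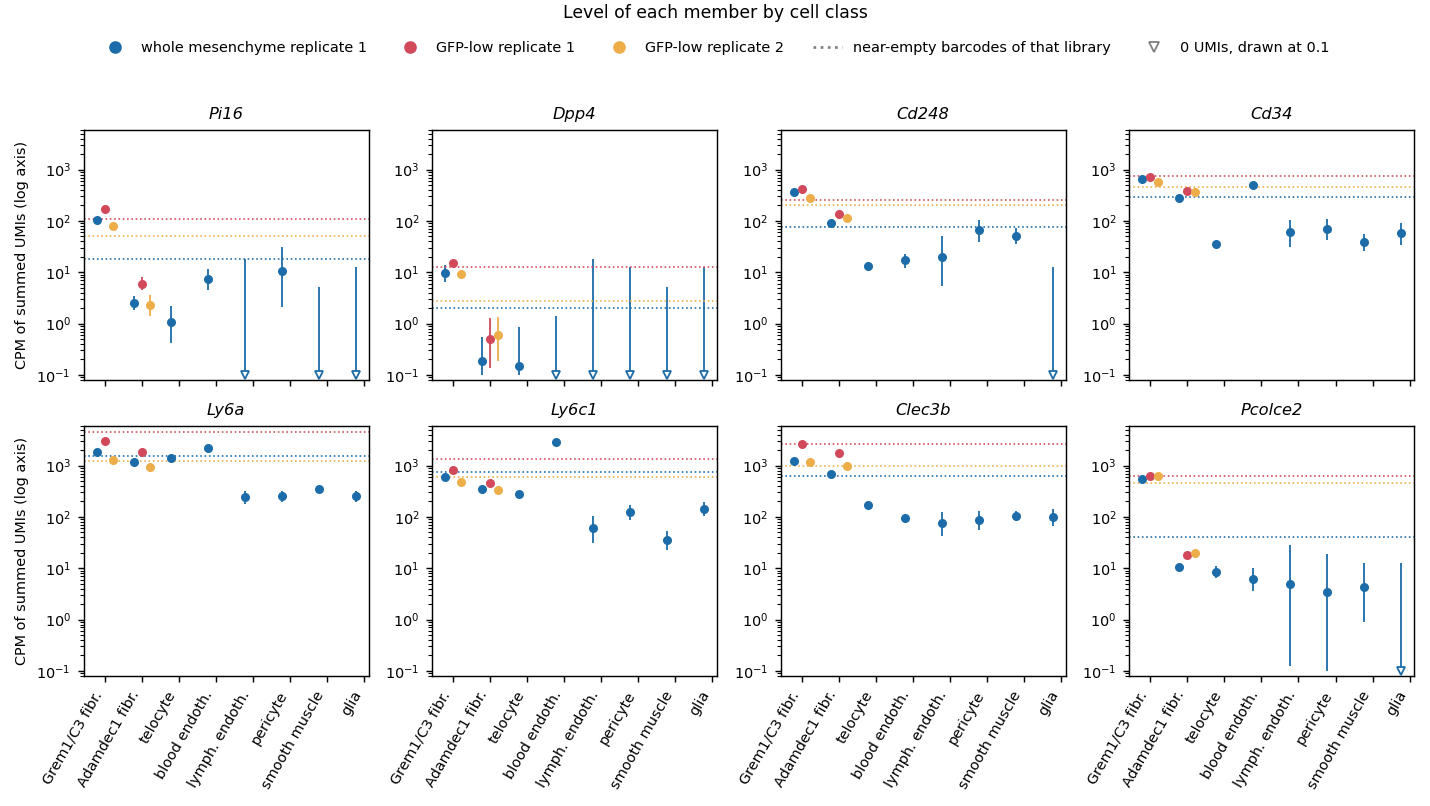
CPM of each gene (log axis) in 8 cell classes of whole mesenchyme and the fibroblast classes of both GFP-low replicates, with 95% counting intervals; dotted lines give the level in barcodes with 10 to 100 UMIs of each library, and open triangles are classes with 0 UMIs. Pi16, Dpp4 and Pcolce2 sit highest in Grem1/C3-like fibroblasts, while Ly6c1 and Ly6a sit highest in blood endothelium.

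Pi16 stood at 104 CPM (interval 93.2 to 117) in Grem1/C3-like fibroblasts of whole mesenchyme, and 171 and 80.3 CPM in the GFP-low replicates. In Adamdec1-like fibroblasts it stood at 2.52, 6.02 and 2.34 CPM. The fibroblast classes therefore did not overlap in any library. Of the cells, 18.0%, 22.6% and 19.4% of Grem1/C3-like fibroblasts held a Pi16 UMI, against 0.657%, 1.78% and 1.13% of Adamdec1-like fibroblasts. In blood endothelium 13 of 801 cells (1.62%, 7.34 CPM) held one, and in telocyte-like cells 0.382%. The level in endothelium was below the 17.8 CPM of near-empty barcodes of that library (barcodes with 10 to 100 UMIs, taken as a measure of free RNA), with overlapping intervals (4.42 to 11.5 and 8.13 to 33.7 CPM). It is not read as expression, and the part of free RNA in it was not tested. Pericytes held a Pi16 UMI in 1 of 84 cells (10.4 CPM), and their interval (2.15 to 30.4 CPM) overlapped that of endothelium. Lymphatic endothelium, smooth muscle and glia held no Pi16 UMI, which allows up to 15.03, 4.28 and 10.1 CPM (3 counts).

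The level in near-empty barcodes was higher in the GFP-low libraries. They held 108 and 50.0 CPM of Pi16. T or innate lymphoid-like cells were taken as a background for Pi16, and whether they express the gene was not tested. Of these, 10 of 83 cells (12.0%, 31.8 CPM, median 5779 UMIs) of GFP-low replicate 1 held a Pi16 UMI. In GFP-low replicate 2 it was 0 of 35, which allows up to 8.57%. The Adamdec1-like share of 1.78% in GFP-low replicate 1 was below the lymphoid share of that library and is not read as expression there. In GFP-low replicate 2 the Adamdec1-like share of 1.13% lay under the limit that 0 of 35 lymphoid cells allows, so these cells give no background to set it against. The part of free RNA in these shares was not tested.

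Dpp4 was the least abundant of the 8 genes. It stood at 9.71, 15.3 and 9.15 CPM in Grem1/C3-like fibroblasts, with a UMI in 3.57%, 5.93% and 4.65% of cells. Adamdec1-like fibroblasts held 0.189, 0.501 and 0.586 CPM. No Dpp4 UMI was found in 801 blood endothelial-like cells, which allows up to 1.16 CPM (3 counts), and none in lymphatic endothelium, pericytes, smooth muscle or glia. In the GFP-low replicates a Dpp4 UMI was found in 3 of 83 and 2 of 35 T or innate lymphoid-like cells (3.61% and 5.71%, 5.62 and 8.69 CPM) and in 2 of 16 and 1 of 14 myeloid-like cells (23.2 and 17.0 CPM). These levels rest on 1 to 3 UMIs each, and their intervals hold the Grem1/C3-like levels of the same libraries. Near-empty barcodes held 1.97, 12.8 and 2.70 CPM. These rest on 1, 39 and 2 UMIs, and their intervals (0.04999 to 11, 9.07 to 17.4 and 0.327 to 9.76 CPM) hold the Grem1/C3-like level in every library. The Grem1/C3-like intervals were 6.50 to 13.9, 13.7 to 17.1 and 8.12 to 10.3 CPM. Those of Adamdec1-like fibroblasts lay below them in every library, at 0.0390 to 0.553, 0.137 to 1.28 and 0.190 to 1.37 CPM. The part of free RNA in these levels was not tested.

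Pcolce2 was likewise higher in Grem1/C3-like than in Adamdec1-like fibroblasts, at higher levels. It stood at 544, 613 and 640 CPM in Grem1/C3-like fibroblasts, with a UMI in 72.0%, 81.9% and 88.4% of cells. Adamdec1-like fibroblasts held 10.5, 17.8 and 19.4 CPM, with a UMI in 3.59%, 7.78% and 9.12% of cells. Blood endothelium held 6.18 CPM (1.37% of cells), below the 41.5 CPM of near-empty barcodes.

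Cd248 stood at 372, 418 and 275 CPM in Grem1/C3-like fibroblasts and at 91.1, 139 and 116 CPM in Adamdec1-like fibroblasts. Pericytes, a cell type for which endosialin is a known marker, held 65.9 CPM and smooth muscle-like cells 51.4 CPM. The intervals of Adamdec1-like fibroblasts, pericytes and smooth muscle-like cells overlapped from 1 to the next in whole mesenchyme. The near-empty level there was 75.0 CPM (interval 53.1 to 103), which held the pericyte and the Adamdec1-like level. In the GFP-low replicates near-empty barcodes held 255 and 207 CPM of Cd248, above the Adamdec1-like levels. Clec3b was the most widely detected gene in fibroblasts, at 1219, 2585 and 1151 CPM in Grem1/C3-like cells (93.2%, 98.7% and 98.0% of cells) and 692, 1739 and 994 CPM in Adamdec1-like cells. Outside fibroblasts it was lower, with 168 CPM in telocyte-like cells and 95.0 CPM in blood endothelium, against 626 CPM in near-empty barcodes. Near-empty barcodes of the GFP-low replicates held 2618 and 994 CPM of Clec3b. The Adamdec1-like level lay below the near-empty interval in GFP-low replicate 1. It lay within that interval in whole mesenchyme (559 to 699 CPM) and GFP-low replicate 2 (923 to 1068 CPM). The part of free RNA in the Adamdec1-like levels of both genes was not tested.

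Cd34 was shared by fibroblasts and endothelium. In whole mesenchyme it stood at 661 CPM (interval 632 to 690) in Grem1/C3-like fibroblasts, 498 CPM (472 to 526) in blood endothelium and 280 CPM (272 to 288) in Adamdec1-like fibroblasts, 3 levels whose intervals did not overlap. A Cd34 UMI was found in 81.8%, 69.9% and 69.1% of these cells. Near-empty barcodes held 294 CPM, and the remaining classes were between 35.4 and 69.4 CPM. In lymphatic endothelium, a cell type that differs from blood endothelium in many surface markers, Cd34 stood at 60.1 CPM.

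Ly6a and Ly6c1 were highest in blood endothelium. Ly6c1 stood at 2866 CPM there (interval 2801 to 2932, a UMI in 93.9% of cells), against 600, 809 and 477 CPM in Grem1/C3-like fibroblasts and 343, 453 and 341 CPM in Adamdec1-like fibroblasts. Ly6a stood at 2190 CPM in blood endothelium (92.8% of cells), 1842 CPM in Grem1/C3-like fibroblasts, 1389 CPM in telocyte-like cells and 1161 CPM in Adamdec1-like fibroblasts of whole mesenchyme. In the GFP-low replicates the fibroblast classes held 3033 and 1307 CPM (Grem1/C3-like) and 1851 and 927 CPM (Adamdec1-like) of Ly6a. Near-empty barcodes held 1526, 4497 and 1255 CPM of Ly6a, so that the Grem1/C3-like level was above the near-empty level in whole mesenchyme, below it in GFP-low replicate 1 and within its interval (1175 to 1338 CPM) in GFP-low replicate 2. Ly6c1 in Grem1/C3-like fibroblasts was below the near-empty level (738, 1354 and 598 CPM) in all 3 libraries. The copy Ly6c2 was at most 1.93 CPM in the 8 named classes of whole mesenchyme. Lymphatic endothelium held 60.1 CPM of Ly6c1 and 240.5 CPM of Ly6a, far below blood endothelium. In GFP-low replicate 1 the Grem1/C3-like levels of Pi16 and Cd248 were above the near-empty intervals, those of Dpp4, Cd34, Clec3b and Pcolce2 within them and those of Ly6a and Ly6c1 below.

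Cd81 itself was not specific to fibroblasts. It stood at 805 CPM in blood endothelium and 784 CPM in glia, against 480, 570 and 409 CPM in Grem1/C3-like and 21.3, 27.1 and 24.2 CPM in Adamdec1-like fibroblasts. The question of nesting was therefore asked among fibroblasts of both classes only. A Cd81 UMI was found in 627 of 3150 fibroblasts of whole mesenchyme (19.9%) and in 3165 of 4675 and 3762 of 5481 of the GFP-low replicates (67.7% and 68.6%). Of these Cd81-positive fibroblasts 70.5%, 95.6% and 96.9% were Grem1/C3-like, against 4.72%, 30.9% and 29.6% of the Cd81-negative ones. Median depth was 6524, 6719 and 7787 UMIs in Cd81-positive and 6044, 5832 and 6092 UMIs in Cd81-negative fibroblasts.

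Most fibroblasts with a Pi16, Dpp4 or Pcolce2 UMI also held a Cd81 UMI. For Pi16 these were 97 of 118 cells in whole mesenchyme (82.2%, interval 74.1 to 88.6%), and 726 of 811 (89.5%) and 752 of 822 (91.5%) in the GFP-low replicates. For Dpp4 they were 15 of 23 (65.2%, interval 42.7 to 83.6%), 199 of 211 (94.3%) and 186 of 197 (94.4%), and for Pcolce2 81.3%, 88.7% and 87.8%. These shares lay above the 19.9%, 67.7% and 68.6% of all fibroblasts in each library. The widely detected genes did not stand out in the same way: 20.6%, 68.8% and 70.5% of Ly6a-positive fibroblasts and 20.7%, 68.3% and 69.7% of Clec3b-positive fibroblasts held a Cd81 UMI. Since Ly6a and Clec3b were detected in most fibroblasts, these shares must lie near those of all fibroblasts, whatever the genes do. Cd248 was between, at 35.3%, 78.0% and 78.3%.

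The converse did not hold, since most Cd81-positive fibroblasts had no Pi16 or Dpp4 UMI. Pi16 was detected in 15.5%, 22.9% and 20.0% of Cd81-positive fibroblasts and in 0.832%, 5.63% and 4.07% of Cd81-negative ones. Dpp4 was detected in 2.39%, 6.29% and 4.94% against 0.317%, 0.795% and 0.640%. After each cell was thinned to 1000 UMIs, 36.5%, 47.0% and 43.8% of Pi16-positive fibroblasts held a Cd81 UMI, against 8.03%, 31.2% and 26.6% of all fibroblasts. Shares were also taken within each fibroblast class. Among Adamdec1-like fibroblasts 41.2%, 38.1% and 33.3% of Pi16-positive cells (7 of 17, 8 of 21 and 5 of 15) held a Cd81 UMI. Of all Adamdec1-like cells 7.15%, 11.8% and 8.74% did. Among Grem1/C3-like fibroblasts the shares were 89.1%, 90.9% and 92.6% of Pi16-positive cells, where 78.8%, 86.6% and 87.8% of all cells did. In both classes the Pi16-positive share thus lay above that of all cells, on few cells in the Adamdec1-like class. Within the Grem1/C3-like class Cd81-negative cells were shallower, at medians of 1756, 2373 and 4435.5 UMIs against 6298, 6687.5 and 7794 in Cd81-positive cells, and the part of depth in the shares within this class was not tested.

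The comparison of Cd81-positive with Cd81-negative fibroblasts asked whether the 8 genes differ in level between these classes within each library. All 8 were higher in Cd81-positive fibroblasts in all 3 libraries, by 10.0-fold for Pi16, 9.89-fold for Pcolce2, 6.68-fold for Dpp4 and 2.75-fold for Cd248, and between 1.44- and 1.82-fold for the other genes. Of 12389 genes tested with edgeR on summed counts, 12.9% were higher and 12.4% lower, so 8 of 8 is a larger share than the background, with a median log2 difference of 1.16 against 0.00845 over all genes tested. The 8 genes and the gene lists below were chosen with earlier results of these data known. Their shares, here and below, are therefore descriptions and not independent support. The classes also differ in their share of Grem1/C3-like cells, as given above, and in this fit that makeup and the Cd81 class cannot be told apart.

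**Figure D2:**
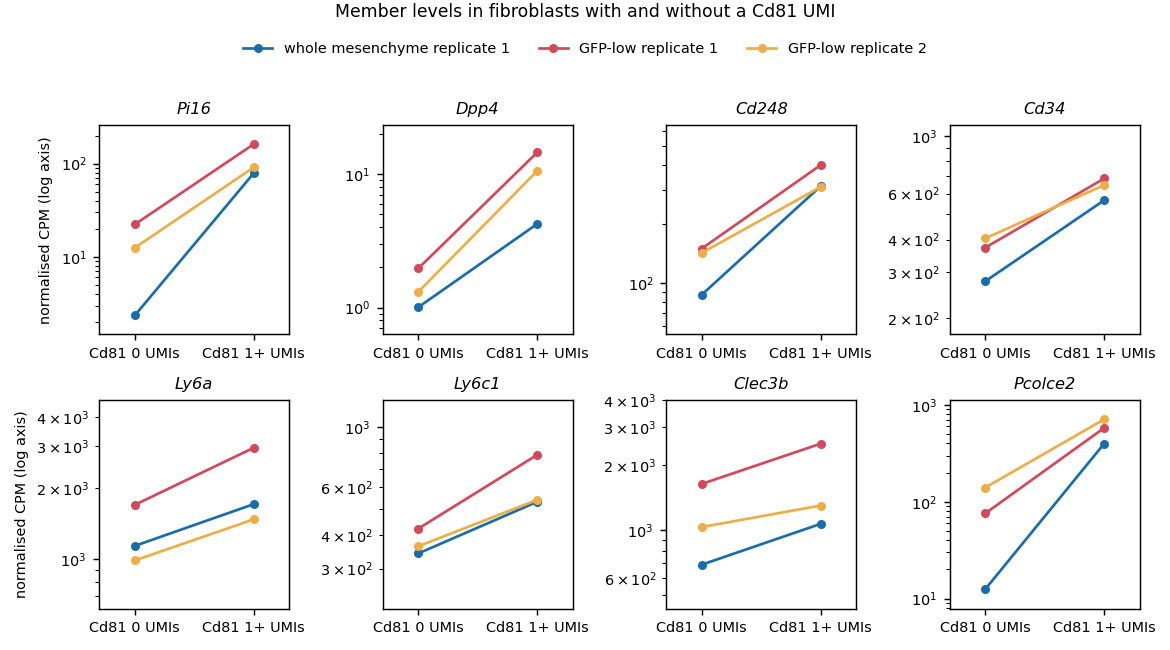
Normalised CPM (log axis) of the 8 genes in fibroblasts with 0 and with 1 or more Cd81 UMIs, 1 line per library. All lines rise to the right, most steeply for Pi16 and Pcolce2 in whole mesenchyme.

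Normalised Pi16 levels in Cd81-positive and Cd81-negative fibroblasts were 78.8 and 2.35 CPM in whole mesenchyme, 162 and 22.3 CPM in the first GFP-low replicate and 91.2 and 12.5 CPM in the second. The classes did not overlap, and the log2 difference was 3.33 ± 0.326 (SE; edgeR adjusted p = 0.000401). Dpp4 levels were 4.23 and 1.01, 14.5 and 1.97, and 10.5 and 1.31 CPM, a log2 difference of 2.74 ± 0.211 (edgeR adjusted p = 0.000165). Pcolce2, the procollagen protease enhancer, stood at 399 and 12.5, 580 and 76.0, and 711 and 140 CPM, a log2 difference of 3.31 ± 0.448 (edgeR adjusted p = 0.00165). For all 3 genes the lowest Cd81-positive level was above the highest Cd81-negative level of any library. Cd248, given next, did the same. In CPM without this normalisation Cd34 and Ly6c1 did so too. Their lowest Cd81-positive levels were 571 and 479 CPM and their highest Cd81-negative levels 410 and 464 CPM. The share of all genes tested that do so was not counted, so this does not set these genes apart.

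Cd248 stood at 313 and 86.9, 401 and 149.8, and 310 and 142 CPM, a log2 difference of 1.46 ± 0.131 (edgeR adjusted p = 0.000285). The surface genes shared with endothelium differed less, by log2 0.86 ± 0.0912 for Cd34, 0.70 ± 0.0913 for Ly6c1 and 0.65 ± 0.0925 for Ly6a (edgeR adjusted p = 0.000547, 0.00137 and 0.00198), and Clec3b by 0.52 ± 0.0968 (edgeR adjusted p = 0.00658). Without GFP-low replicate 1 the differences of Clec3b (0.47) and Ly6a (0.57) no longer passed, with edgeR adjusted p = 0.116 and 0.0615. With cells thinned to 1000 UMIs the differences were smaller, at 1.21 for Pi16, 1.22 for Dpp4, 1.07 for Pcolce2 and 0.77 for Cd248. There the Cd81 classes were set anew from the thinned counts. Cd81-positive cells fell from 627, 3165 and 3762 to 253, 1459 and 1458, and the others joined the negative class. The thinned differences therefore do not measure the part of depth. The differences were also computed within each class: within Grem1/C3-like fibroblasts Pi16 (0.63), Pcolce2 (0.47), Ly6a (0.42) and Ly6c1 (0.36) still passed and Dpp4 (0.32), Cd34 (0.28), Cd248 (0.25) and Clec3b (0.21) did not, where Cd81-negative cells were the shallower as given above. Within Adamdec1-like fibroblasts Pi16 (3.66), Pcolce2 (2.98), Cd248 (0.87) and Ly6a (0.19) passed, Cd34 (0.23), Ly6c1 (0.16) and Clec3b (0.07) did not, and Dpp4 has no value there. Only 17, 21 and 15 Adamdec1-like cells held a Pi16 UMI, so the value of Pi16 rests on few cells. The part of doublets, of cells put in the wrong class or of free RNA in it was not tested.

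Marker genes of several other cell types were lower in Cd81-positive than in Cd81-negative fibroblasts. The summed level of 8 blood endothelial markers was 34.9 CPM in Cd81-positive and 35.2 CPM in Cd81-negative fibroblasts of whole mesenchyme, with none at 0. In the GFP-low replicates it was 10.3 and 4.78 CPM in Cd81-positive and 17.2 and 8.38 CPM in Cd81-negative fibroblasts, with 2 of the 8 at 0 in each. The 7 pericyte markers summed to 32.4, 19.0 and 14.2 CPM in Cd81-positive and to 45.9, 118 and 59.1 CPM in Cd81-negative fibroblasts, and the 7 smooth muscle markers to 151, 62.8 and 43.4 CPM against 265, 235 and 181 CPM. The 7 B or plasma cell markers summed to 48.4, 72.3 and 47.6 CPM against 96.1, 403 and 183 CPM, the 7 glia markers to 115, 106 and 59.98 CPM against 172, 253 and 161 CPM, and the 5 markers of interstitial cells of Cajal to 133, 46.6 and 50.4 CPM against 382, 172 and 206 CPM. These 5 lists were thus lower in the class where the 8 genes were higher, and their part in the differences was not tested. Myeloid markers summed to at most 27.3 CPM, and T or innate lymphoid, epithelial, mesothelial and lymphatic markers to at most 7.28 CPM in either class.

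The other lists of related genes were described by their counts in the same edgeR fit. Of the adventitial fibroblast genes, 17 of 18 tested were higher in Cd81-positive fibroblasts and 1 did not pass, with a median log2 difference of 1.44. Among them were Efhd1 (3.24 ± 0.308), Igfbp6 (2.63 ± 0.221), an IGF-binding protein, and Emilin2 (2.54 ± 0.254), an elastic fibre glycoprotein. Of 8 tested mesenchymal surface markers 1 was higher (Thy1, 0.62 ± 0.123) and 5 were lower, among them Vcam1, an adhesion molecule (-1.12 ± 0.0829), and Cspg4, the NG2 proteoglycan of pericytes (-1.25 ± 0.124).

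Relatives of the 8 genes went in both directions. Of the Ly6 family 4 were tested, and 2 of them, Ly6h (-2.79 ± 0.207) and Cd59a (-1.11 ± 0.171), were lower in Cd81-positive fibroblasts and the other 2 did not pass, whereas Ly6a and Ly6c1 were higher. Of the relatives of Dpp4, 2 of 6 were higher: Fap (1.68 ± 0.130), the fibroblast activation protein, and Dpp7 (0.37 ± 0.0782). Of 6 CAP superfamily and C-type lectin relatives 1 was higher (Clec11a, 0.37 ± 0.103) and 3 lower, among them Clec14a (-2.05 ± 0.253), an endothelial lectin. Of 13 collagen maturation genes 4 were higher and 6 lower, with Lox, the collagen cross-linking oxidase, at -0.79 ± 0.0636. None of the 3 sialomucins tested passed in edgeR, with 2 at an unadjusted p under 0.05 and 0 called by DESeq2. Of 12 genes that respond to tissue dissociation 4 were higher and 8 did not pass, among the former Atf3 (0.82 ± 0.156), and the part of dissociation in the other differences was not tested.

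The size of the Cd81 class difference was compared between whole mesenchyme and GFP-low. Of 12389 genes, 0.517% had a larger and 0.194% a smaller log2 difference in whole mesenchyme (edgeR, class by group term), and 2 of the 8 genes were among the larger. The difference of Pcolce2 was larger by log2 2.37 ± 0.255 (edgeR adjusted p = 0.0218) and that of Pi16 by 2.20 ± 0.210 (edgeR adjusted p = 0.0148). For both, Cd81-negative fibroblasts of whole mesenchyme had lower levels than those of the GFP-low replicates (Pi16 2.35 against 22.3 and 12.5 CPM, Pcolce2 12.5 against 76.0 and 140 CPM), and they held 4.72% Grem1/C3-like cells against 30.9% and 29.6%. The differences of the other 6 genes lay between -0.87 (Dpp4) and 0.57 (Cd248). Among libraries, the spread behind this test comes from the 2 GFP-low replicates alone, and the rest of it is borrowed across genes.

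How many of the 8 genes were found in a single cell was counted next. Cd81-positive fibroblasts held a median of 5, 6 and 6 of them in the 3 libraries, and Cd81-negative fibroblasts 4 in each library. At least 5 were found in 65.7%, 81.5% and 81.4% of Cd81-positive and 19.5%, 35.8% and 37.2% of Cd81-negative fibroblasts. After thinning to 1000 UMIs the medians were 3 against 2 in every library. The classes thus differed in number of genes per cell at equal depth too.

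**Figure D3:**
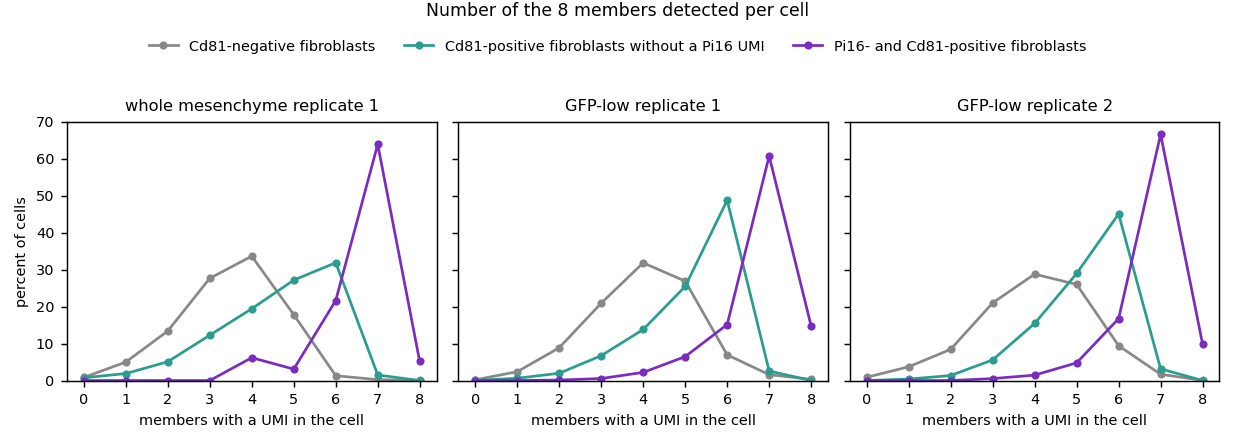
Percent of cells (y axis) by the number of the 8 genes with a UMI (x axis) in Cd81-negative fibroblasts, Cd81-positive fibroblasts without a Pi16 UMI, and Pi16- and Cd81-positive fibroblasts of each library; the curve of the last includes Pi16 itself. Its peak is at 7 genes in all 3 libraries, Pi16 counted, and that of Cd81-positive fibroblasts without a Pi16 UMI is at 6.

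All 8 genes in 1 cell were rare. They were found in 5 of 627, 107 of 3165 and 74 of 3762 Cd81-positive fibroblasts (0.797%, 3.38% and 1.97%) and in 2 of 2523, 5 of 1510 and 1 of 1719 Cd81-negative ones. Among Dpp4- and Cd81-positive fibroblasts they were found in 5 of 15, 107 of 199 and 74 of 186 cells. These are the same cells as among all Cd81-positive fibroblasts, since a cell with all 8 holds Dpp4. Pi16- and Cd81-positive fibroblasts held a median of 7 of the 8, Pi16 included. Blood endothelial-like cells held a median of 3, with no cell above 6. That number is mostly Cd34, Ly6a and Ly6c1.

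Pairs of the 8 genes were next compared by the odds ratio of being detected in the same cell, within 10 strata of UMIs per cell. An odds ratio above 1 means that cells with 1 gene hold the other more often than cells of like depth without it. In Cd81-positive fibroblasts the median over pairs was 2.47, 2.23 and 2.20, and 24 of 26, 25 of 26 and 26 of 27 pairs with a value were above 1. Cells of 1 library are not replicates, and 3 libraries cannot go below an exact two-sided p of 0.25, so no test was made.

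**Figure D4:**
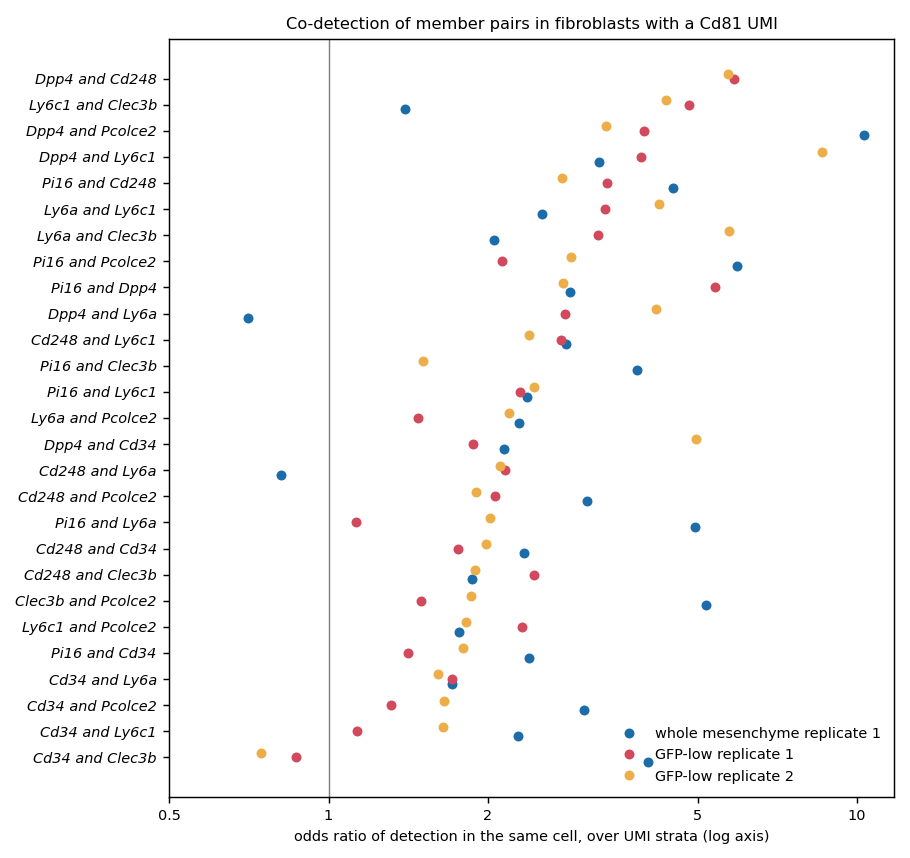
Odds ratio of detection in the same cell (log axis, stratified by UMIs per cell) for pairs of the 8 genes in Cd81-positive fibroblasts, 1 point per library, ordered by the median. Most points lie right of 1, and Cd34 with Clec3b lies left of it in both GFP-low replicates.

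Pi16 and Dpp4 were found together in 6, 119 and 80 Cd81-positive fibroblasts, with odds ratios of 2.87, 5.40 and 2.77. Of the Dpp4-positive cells 40.0%, 59.8% and 43.0% held a Pi16 UMI, whereas 6.19%, 16.4% and 10.6% of the Pi16-positive cells held a Dpp4 UMI. The overlap was thus uneven, with Dpp4 the rarer gene. Pi16 went with Cd248 (odds ratios 4.48, 3.36 and 2.77) and Pcolce2 (5.93, 2.13 and 2.87) in every library and less with Cd34 (2.40, 1.42 and 1.79).

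Dpp4 had odds ratios above 3 with Cd248, Ly6c1 and Pcolce2 wherever there was a value, and the order of its partners differed between libraries. All 15 Dpp4-positive cells of whole mesenchyme held Cd248, and the odds ratios were 5.84 and 5.71 in the GFP-low replicates. With Ly6c1 they were 3.25, 3.90 and 8.60 and with Pcolce2 10.3, 3.96 and 3.35. The value of 10.3 rests on 15 Dpp4-positive cells. Cd34 and Clec3b differed between libraries, at 4.03 in whole mesenchyme and 0.869 and 0.744 in the GFP-low replicates, where nearly every cell held Clec3b and few cells without it set the value.

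The pairs were less tightly linked within a fibroblast class. Within Grem1/C3-like fibroblasts the median odds ratio was 1.73, 2.05 and 2.03, and within Adamdec1-like fibroblasts 1.99, 1.37 and 1.42, against 2.78, 2.48 and 2.50 over both classes. In blood endothelium, where 18 pairs had a value, the median was 1.52. Ly6a and Ly6c1 were found together in 714 of 801 endothelial cells (89.1%, odds ratio 4.31), and Cd34 with Ly6c1 in 541 (1.89). Clec3b, a fibroblast gene, had odds ratios below 1 with each of these: 0.745 with Cd34, 0.486 with Ly6a and 0.680 with Ly6c1. It went instead with Cd248 (5.89, 18 cells with both) and Pcolce2 (4.73, 6 cells), genes of fibroblasts that few endothelial cells held.

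Fibroblasts with Pi16 and Dpp4 were unevenly spread over clusters formed without these genes. In GFP-low replicate 1, cluster 4 held 417 of 811 Pi16-positive and 131 of 211 Dpp4-positive fibroblasts (51.4% and 62.1%) and 22.2% of all fibroblasts. In GFP-low replicate 2, cluster 13 held 225 of 822 and 105 of 197 (27.4% and 53.3%) and 8.58% of all fibroblasts, while cluster 0 held more Pi16-positive cells (325, 39.5%) at 39.7% of all fibroblasts. In whole mesenchyme most Pi16-positive fibroblasts lay in clusters 8 (34 of 118, at 7.33% of all fibroblasts), 4 (22, at 3.84%) and 13. There cluster 13 held 19 of 118 Pi16-positive and 10 of 23 Dpp4-positive cells and 1.49% of all fibroblasts. All 4 clusters are Grem1/C3-like, and Sfrp4, which encodes a secreted Wnt antagonist, Cmah and Ptx3 are among the genes that lead clusters 4 and 13. Cluster 4 was shallow, at a median of 3373 UMIs in GFP-low replicate 1, and cluster 13 deep, at 9261.5 UMIs in GFP-low replicate 2.

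Inside Cd81-positive fibroblasts, Pi16-positive and Pi16-negative cells were compared next. Of the other 7 genes, 5 were higher in Pi16-positive cells in all 3 libraries: Dpp4 by 4.09-fold, Cd248 by 1.93-fold, Ly6c1 by 1.44-fold, Pcolce2 by 1.37-fold and Cd34 by 1.35-fold. Ly6a and Clec3b did not pass, nor did Cd81. Of 11261 genes tested with edgeR 6.05% were higher and 7.71% lower, and the median of the 7 was log2 0.456 against 0.00173 over all genes. Pi16-positive cells were deeper, at medians of 7330, 7122 and 8482 UMIs against 6473.5, 6598 and 7627. The summed level of 8 Adamdec1-like fibroblast markers was lower in Pi16-positive cells, at 1784, 384 and 271 CPM against 4122, 1076 and 743 CPM, so the classes also differed in fibroblast makeup, and its part in the differences was not tested.

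Dpp4 levels in Pi16-positive and Pi16-negative cells were 8.58 and 3.23 CPM in whole mesenchyme, 36.9 and 6.63 CPM in the first GFP-low replicate and 21.7 and 7.03 CPM in the second, a log2 difference of 2.03 ± 0.164 (edgeR adjusted p = 5.11e-07). Cd248 levels were 496 and 267, 632 and 310, and 474 and 254 CPM, a log2 difference of 0.95 ± 0.0632 (edgeR adjusted p = 6.95e-08). The Pi16-positive level was the higher of each pair. Log2 differences were 0.53 ± 0.0653 for Ly6c1, 0.46 ± 0.0767 for Pcolce2 and 0.44 ± 0.0666 for Cd34 (edgeR adjusted p = 4.01e-05, 0.000641 and 0.000282). Those of Ly6a (0.19 ± 0.0635), Cd81 (0.17 ± 0.0659) and Clec3b (0.15 ± 0.0633) were at edgeR adjusted p = 0.062, 0.107 and 0.148.

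**Figure D5:**
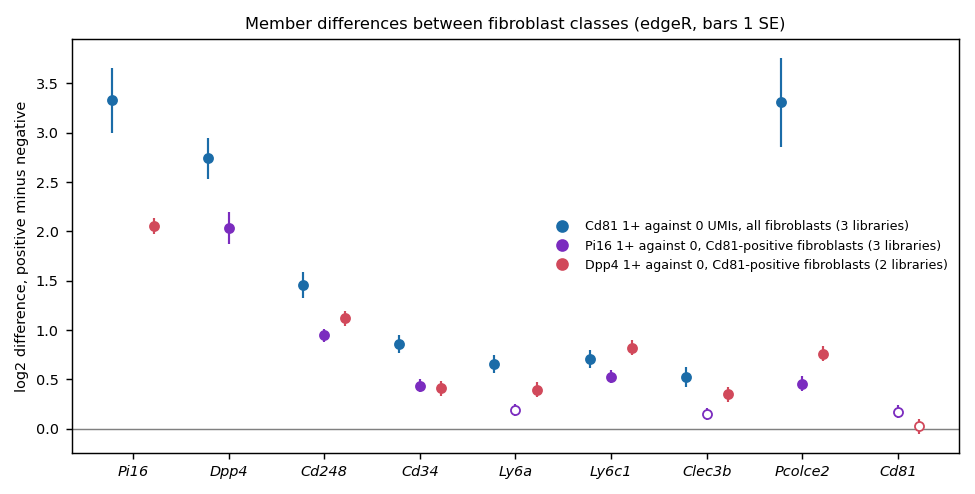
Log2 difference (positive minus negative cells) of the 8 genes and Cd81 in 3 comparisons, with bars of 1 SE; filled points passed the edgeR threshold and open points did not. Pi16 and Dpp4 each have the largest difference in the comparison by the other, and Cd81 lies at 0.17 and 0.03 in these 2 comparisons.

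The same comparison by Dpp4 could be fitted in the 2 GFP-low libraries, since whole mesenchyme held 15 Dpp4- and Cd81-positive cells. The other 7 genes were all higher in Dpp4-positive cells, and Cd81 was not called (0.03 ± 0.0781). The 8 Adamdec1-like markers summed to 417 and 218 CPM in Dpp4-positive against 942 and 665 CPM in Dpp4-negative cells, and the part of this makeup was not tested. Pi16 levels in Dpp4-positive and Dpp4-negative cells were 626 and 119 CPM in the first GFP-low replicate and 243 and 77.8 CPM in the second, a log2 difference of 2.06 ± 0.0824. The differences were 1.12 ± 0.0775 for Cd248, 0.82 ± 0.0753 for Ly6c1, 0.76 ± 0.0754 for Pcolce2, 0.41 ± 0.0758 for Cd34, 0.40 ± 0.0741 for Ly6a and 0.35 ± 0.0743 for Clec3b. Of 11930 genes tested with edgeR 5.4% were higher and 6.12% lower, with a median log2 difference of -0.01 against 0.762 for the 7. The fit had 1 residual degree of freedom and took its spread wholly from the trend over all genes, so its p-values are not printed for single genes. Leaving out GFP-low replicate 2 and keeping whole mesenchyme ended the calls of Cd34 (edgeR adjusted p = 0.277), Ly6a (0.0705) and Clec3b (0.147), and leaving out GFP-low replicate 1 ended that of Clec3b (0.167). The comparisons by Pi16 and by Dpp4 share cells and are set side by side only.

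Adventitial fibroblast genes went with both Pi16 and Dpp4. By Pi16, 17 of 19 tested were higher and 2 did not pass (median log2 difference 0.593), and by Dpp4 17 of 20 were higher and 1 (Dpt) lower (median 0.882). Efhd1, a mitochondrial calcium-binding protein, stood at 34.3 and 5.87, 43.0 and 6.81, and 37.3 and 5.78 CPM in Pi16-positive and Pi16-negative cells, a log2 difference of 2.66 ± 0.109 (edgeR adjusted p = 7.51e-10). Dact2, a Wnt and TGF-beta pathway modulator, differed by 2.01 ± 0.262 by Pi16 and 2.23 ± 0.373 by Dpp4, and Anxa3, an annexin, by 1.14 ± 0.0629 by Pi16. Smpd3, a sphingomyelinase, differed by 3.20 ± 0.597 by Dpp4.

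The other lists moved less or in both directions. Of 8 mesenchymal surface markers 2 were higher (Thy1 0.65 ± 0.0698, Cd44 0.40 ± 0.0614) and 3 lower by Pi16, among them Pdgfra (-0.38 ± 0.0620), the gene that drives the reporter. By Dpp4 2 were higher (Thy1 1.29 ± 0.106, Cd44 0.47 ± 0.0934) and 2 lower (Vcam1 -0.91 ± 0.105, Cspg4 -1.17 ± 0.400). Of 13 collagen maturation genes 3 were higher and 2 lower by Pi16, and 4 higher and 2 lower by Dpp4. Lox was lower in both (-0.65 ± 0.0843 and -1.02 ± 0.135) and its relative Loxl1 higher in both (0.40 ± 0.0646 and 0.46 ± 0.0792). Fap was the only one of 6 tested relatives of Dpp4 called by Dpp4 (0.82 ± 0.0860), and by Pi16 none of the 6 passed in edgeR, with 1 at an unadjusted p under 0.05 and 0 called by DESeq2. Of the Ly6 family none of 2 tested by Pi16 and none of 4 by Dpp4 passed in edgeR, with 1 in each at an unadjusted p under 0.05 and 0 called by DESeq2. The sialomucins tested, 1 by Pi16 and 2 by Dpp4, gave 0 calls in edgeR, 0 at an unadjusted p under 0.05 and 0 in DESeq2. Of 5 CAP and lectin relatives 2 were higher and 2 lower by Pi16 and 2 higher and 1 lower by Dpp4. Of 12 dissociation genes 3 were lower and 9 did not pass in each, among the former Hspa1a (-0.44 ± 0.0690 and -0.53 ± 0.0815).

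Among genes outside the lists, those highest in Pi16-positive cells were Npy1r, a neuropeptide Y receptor (2.46 ± 0.107), Basp1 (1.90 ± 0.0782), Cmah (1.67 ± 0.0999), Sfrp4 (1.62 ± 0.108), Adamts5, an aggrecanase (1.495 ± 0.0723), 1700019D03Rik (1.41 ± 0.0798), Lrrn4cl (1.32 ± 0.0637), Tmem100 (1.28 ± 0.0681), Gm12840 (1.27 ± 0.114) and Timp3, a metalloprotease inhibitor (1.18 ± 0.144). Npy1r stood at 55.8 and 18.2, 101 and 13.99, and 175 and 34.6 CPM in Pi16-positive and Pi16-negative cells. The lowest were Apoe, a lipid carrier (-2.57 ± 0.0966), Saa3, an acute phase protein (-2.33 ± 0.416), Edil3 (-2.06 ± 0.135), Igfbp3 (-2.01 ± 0.113) and Mamdc2 (-1.82 ± 0.109). Apoe stood at 58.6 and 522, 40.2 and 206, and 30.6 and 181 CPM.

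By Dpp4 the highest were Pla1a, a phospholipase (3.20 ± 0.142), Nov, a matricellular CCN protein (2.91 ± 0.138), Sfrp4 (2.64 ± 0.0855), Basp1 (2.43 ± 0.0946), Adamts5 (1.85 ± 0.0782), Igfbp5 (1.84 ± 0.0805), Cmah (1.80 ± 0.0909), Limch1 (1.80 ± 0.150), Opcml (1.79 ± 0.106) and Sntb1 (1.61 ± 0.130). The lowest were Apoe (-3.11 ± 0.143), Robo2 (-2.56 ± 0.188), Grem1, a secreted BMP antagonist (-2.46 ± 0.0819), Mfap4 (-2.40 ± 0.101) and Stc2 (-2.28 ± 0.109). Grem1 stood at 374 CPM in Dpp4-positive and 2218 CPM in Dpp4-negative cells of the first GFP-low replicate and 593 against 3026 CPM in the second. Dpp4-positive cells thus held less Grem1, a gene that names the class most of them belong to, than other Cd81-positive fibroblasts of the same library.

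Levels of the 8 genes were last compared with those of all genes over 15 sums of a cell class and library. Over 12196 genes those most like Pi16 were Rnf165 (Pearson r = 0.885), Fap (0.879), Prrx1 (0.869), Adm (0.845) and Atp1b1 (0.829), and among those most like Cd34 were Fbln2 (0.945), Mgp (0.925), Gda (0.899) and Adh1 (0.863). Among the 8, Dpp4 and Pcolce2 were most alike (0.947), and Dpp4 and Ly6c1 less so (0.394). The sums share libraries and cell classes, so these values describe likeness only.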

How the data were processed

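UMI counts per gene and barcode of 3 single-cell libraries of mouse colon were used as the authors deposited them, without an added normalization; Cell Ranger 3.0.2 and mm10 are named in the submitters' processing notes. The 8 genes and the gene lists were chosen with earlier results of these data known. Cells with at least 1000 UMIs, 500 genes and at most 20% mitochondrial UMIs were kept. They were clustered (scanpy 1.11.5, Leiden resolution 1, 26 clusters) without 107 genes: the 8 genes, Cd81 and the list genes. A cluster was named where at least 3 marker genes were raised 1.5-fold; clusters 9 and 15 had 2. Cluster 19 had 4 but stayed unnamed because its depth was 0.293 of that of its libraries, under a limit of 0.333, with no marker among its 10 leading genes. Scrublet marked 0.0294 to 0.0621% of cells, which means that it did not work, so doublets were not removed. Counts were summed per library and class (at least 20 cells) and tested with edgeR 4.0.16 (quasi-likelihood, filterByExpr, TMM, library as block, Benjamini-Hochberg over all genes tested, threshold 0.05); normalised CPM are those of these sums. Part of the spread in these tests is borrowed across genes. The median prior degrees of freedom were 5.18 (Cd81), 12.9 (Pi16) and 6.49 (class by group term), against 2, 2 and 1 residual. On simulated data for the Cd81, Pi16 and Dpp4 comparisons and the class by group term, edgeR recovered 92.9%, 90%, 60% and 22.9% of genes changed by log2 1. Named genes were the 8 members and, per list, up to 3 called genes with the largest differences going the same way in all libraries fitted; outside the lists, the 10 highest and 5 lowest with at least 50 CPM in the higher class by Pi16 and by Dpp4; and the 5 genes most like Pi16 and Cd34 (log2 of CPM + 1), of which 1 is not reported here. Cd44 and Dpt in the Dpp4 comparison, and the comparison of cluster shares, were chosen after their values were seen. Odds ratios are Mantel-Haenszel values over 10 strata. Intervals (95%) and limits of a count of 0 cover counting error only. DESeq2 1.42.0, thinning, other filters and left-out libraries were alternatives. The bulk samples were not used here.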

Additional observations from a re-analysis of the deposited data

Results flagged for a closer look

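Among the 8 genes, 2 differed between whole mesenchyme and GFP-low in how far apart Cd81-positive and Cd81-negative fibroblasts were, by the class by group term of the edgeR fit. The log2 difference of Pcolce2, the procollagen protease enhancer, was larger in whole mesenchyme by 2.365 ± 0.255 (edgeR adjusted p = 0.0218), and that of Pi16 by 2.202 ± 0.210 (edgeR adjusted p = 0.0148). Both came with lower levels in Cd81-negative fibroblasts of whole mesenchyme, 12.5 CPM of Pcolce2 against 76.0 and 140 CPM in the GFP-low replicates and 2.35 CPM of Pi16 against 22.3 and 12.5 CPM. Near-empty barcodes differed in the same direction, at 41.5 against 630 and 458 CPM of Pcolce2 and 17.8 against 108 and 50.0 CPM of Pi16, and so did the share of Grem1/C3-like cells among Cd81-negative fibroblasts, at 4.72% against 30.9% and 29.6%. The part of either in the difference was not tested. Whole mesenchyme is 1 library from mice of another genotype label and another sort, so group, sort and library cannot be told apart.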

How the results depend on the processing

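Of the alternatives to the tests of the 8 genes, 293 kept their side of the threshold, 30 no longer passed, 4 passed that had not, and none changed direction. The Cd81 comparison called 3135 genes, against 496 with cells thinned to 1000 UMIs, 755 without the library block (2160 at an unadjusted p under 0.05), 626 within Grem1/C3-like and 352 within Adamdec1-like fibroblasts (both chosen after seeing the data), and 1684 to 3926 with 1 library left out (1684 without the first GFP-low replicate). The Pi16 comparison called 1549, against 593 with DESeq2, 3 without the library block (622 unadjusted), and 537 and 609 with the first or the second GFP-low replicate left out and 2341 without whole mesenchyme. The Dpp4 comparison called 1374, against 460 with DESeq2, 0 with edgeR without the library block (729 unadjusted), and 454 and 527 with the first or the second GFP-low replicate left out (sums of at least 10 cells, chosen after seeing the data). The class by group term called 88 genes, against 284 with cells of at least 2000 UMIs, 323 at clustering resolution 2, 188 with the highest doublet scores removed and 562 without the filter on low counts. The median odds ratio, averaged over libraries, was 2.30 in Cd81-positive fibroblasts (1.43 thinned, 4.08 without UMI strata, 2.21 to 2.35 with 1 library left out) and 2.59 in all fibroblasts (1.78, 4.24 and 2.49 to 2.64, and 2.85 with at most 10% mitochondrial UMIs). Apart from what their construction changes (fewer UMIs, cells or libraries, and Cd81 classes set anew in thinned cells), the cause was not tested. No paired analysis was possible because the replicate numbers tie no samples across groups and whole mesenchyme has 1 library; the library block compares classes of cells within a library. Low depth limits Dpp4 most: 23 fibroblasts of whole mesenchyme held a UMI.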

Other observations

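Of the 145 cells of whole mesenchyme with a Pi16 UMI, 101 were Grem1/C3-like fibroblasts (69.7%), 17 Adamdec1-like fibroblasts, 13 blood endothelial-like cells and 6 telocyte-like cells. Of the 25 with a Dpp4 UMI, 20 were Grem1/C3-like (80.0%) and 3 Adamdec1-like.

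The genes most like the other 6 members over the 15 class sums, chosen after their values were seen, differed by member. For Dpp4 they were led by Gm11309 (Pearson r = 0.979) and Brinp3 (0.958), for Pcolce2 by Ackr4, an atypical chemokine receptor (0.986), and for Clec3b by Fbln1, a basement membrane protein (0.964). For Cd248 they included Grem1 (0.902). For Ly6c1 they were led by Mcc (0.867) and Jam2 (0.861), a junctional adhesion molecule, both highest in blood endothelium. The sums share libraries and classes, so these are descriptions with no test.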
